A study of Mus musculus with 8 samples.

Results

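A set of 38 genes of sterol and fatty acid synthesis and of their control was followed in the hearts of mice lacking Gpihbp1. The genes were taken by name from the deposited table, and 38 of 38 were listed there and passed the filter on low counts, out of 17190 genes listed and 12826 tested. They are 17 enzymes of cholesterol synthesis, 12 enzymes that make, desaturate or elongate fatty acids, 6 genes of the SREBP control system and 3 further regulators of lipogenesis. The choice did not use measured values as a criterion, although results of these data were known when the list was drawn up.

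The study set 4 hearts of male Gpihbp1-/- mice, numbered 1, 2, 3 and 4, against 4 hearts of male wild-type mice, numbered 2, 4, 5 and 6. All were fed standard chow in individually ventilated cages under a 12-hour light cycle, and the labels give no age, strain, litter, batch or time of collection. Gpihbp1 encodes the endothelial protein that carries lipoprotein lipase to the capillary lumen, where the lipase frees fatty acids from circulating triglyceride, and the study asked what its loss does to the heart. The deletion is labelled only as a knockout of the gene, so what the construct removes is not described, and every p-value reflects heart-to-heart spread in this 1 set of animals only.

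Cholesterol is built from acetyl-CoA through mevalonate, isoprenoid diphosphates, squalene and lanosterol, and fatty acids from the same acetyl-CoA through malonyl-CoA. SREBP transcription factors drive both routes: they wait in the endoplasmic reticulum bound to the escort SCAP, are held there by INSIG proteins when sterols are plentiful, and are cut free in the Golgi when sterols fall. In rodent liver and adipose tissue SREBP-1c and the glucose-responsive factor ChREBP govern lipogenesis. The heart takes most of its fatty acids from the blood, and there malonyl-CoA serves largely as a brake on mitochondrial fatty acid uptake.

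Promoters show what the sterol genes share in sequence. RefSeq windows of the 250 bases before each RefSeq start (GRCm38.p6, a build other than that of the counts) were at hand for 31 of the 38 genes, 41 windows in all. The GENCODE annotation of that build places bases of 21 of the 41 windows in an exon of the same gene, so those windows are partly or wholly transcript there. The CCAAT box, a site of the factor NF-Y that acts beside SREBP in sterol promoters, was searched as CCAAT on both strands (ATTGG is its reverse). It occurred in 25 of 31 genes (80.6%) and in 14 of 14 sterol enzymes with a window, against 40.5% of the 10220 tested genes with a window. One strict spelling of the sterol regulatory element, TCACNCCAC on either strand, occurred in 2 of 31 genes, Hmgcs1 and Mlxipl (6.45%), against 1.19% of tested genes. The E-box CACGTG occurred in 7 of 31 (22.6%), against 9.77%. A gene counted if any of its windows held the motif, and matches of different motifs may share letters, since an E-box can begin inside a sterol element. A match is a description of letters only.

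Hmgcs1 is printed as the sterol enzyme with the strict sterol element, Mvk and Mvd as further enzymes of the mevalonate route, and Mid1ip1 as the gene that separated the genotypes. GENCODE places none of the bases of these windows in an exon of the gene. They run 5′ to 3′ on the gene's strand, with CCAAT boxes and, in Hmgcs1, the sterol element in capitals. The windows are chr13:119690101-119690350 (plus strand) for Hmgcs1, chr5:114444019-114444268 (plus) for Mvk, chr8:122443423-122443672 (minus) for Mvd and chrX:10717115-10717364 (plus) for Mid1ip1.
Hmgcs1: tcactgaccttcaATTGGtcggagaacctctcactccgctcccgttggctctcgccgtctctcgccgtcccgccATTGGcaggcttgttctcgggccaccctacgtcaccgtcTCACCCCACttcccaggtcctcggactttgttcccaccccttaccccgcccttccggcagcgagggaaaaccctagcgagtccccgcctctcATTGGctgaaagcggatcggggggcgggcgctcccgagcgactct
Mvk: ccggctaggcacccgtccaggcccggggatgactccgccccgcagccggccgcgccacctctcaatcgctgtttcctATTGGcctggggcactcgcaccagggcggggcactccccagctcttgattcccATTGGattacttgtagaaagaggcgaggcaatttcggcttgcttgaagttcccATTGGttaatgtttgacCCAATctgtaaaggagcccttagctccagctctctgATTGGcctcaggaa
Mvd: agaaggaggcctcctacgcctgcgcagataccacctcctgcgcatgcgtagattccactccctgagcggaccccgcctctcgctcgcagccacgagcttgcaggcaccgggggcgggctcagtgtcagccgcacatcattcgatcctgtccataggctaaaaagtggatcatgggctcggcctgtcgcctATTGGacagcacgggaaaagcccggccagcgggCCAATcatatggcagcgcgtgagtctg
Mid1ip1: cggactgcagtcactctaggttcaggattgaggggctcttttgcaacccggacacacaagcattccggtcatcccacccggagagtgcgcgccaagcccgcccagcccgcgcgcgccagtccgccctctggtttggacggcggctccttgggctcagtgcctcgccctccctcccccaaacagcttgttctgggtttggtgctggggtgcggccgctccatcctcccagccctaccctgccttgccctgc
In Hmgcs1 the sterol element began 137 bases before the RefSeq start and CCAAT boxes 237, 176 and 45 bases before it. Mvk held boxes at 173, 120, 67, 50 and 14 bases, and Mvd at 60 and 27. The Mid1ip1 window held none of the 3 motifs. For Mvk and Mvd the bases just after the RefSeq start occur in a GENCODE transcript of the gene, and for Hmgcs1 and Mid1ip1 they do not. The distances given for Hmgcs1 therefore rest on the RefSeq start alone.

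The 8 libraries held between 9065553 and 13492957 estimated counts each, with a biological coefficient of variation of 43.7%. Gpihbp1 itself had 0, 0, 1 and 0 counts in knockout 1, 2, 3 and 4, against 1108, 1951, 833 and 1783 in wild-type 2, 4, 5 and 6. Knockout 2 and wild-type 2 stood apart from the other 6 hearts in marker sums. Summed TPM of 7 macrophage markers was 2644 and 3154 there against 144 to 503 elsewhere. That of 6 fibroblast markers was 3042 and 2276 against 212 to 624, and that of 8 cardiomyocyte markers 27234 and 29452 against 61608 to 69208. Myl2 had the highest TPM of the cardiomyocyte markers, 10292 and 12698 against 26913 to 38947. In CPM, Myh6, Tnni3, Myl2, Pln and Ckm were lower in both of these hearts than in all others. Actn2, Tnnt2 and Ryr2 were not. Actn2 was at 1874 CPM in wild-type 2 and 1732 in wild-type 4. Tnnt2 was at 5332 CPM in wild-type 2 and 4770 in wild-type 5, and Ryr2 at 536 in knockout 2 and 436 in wild-type 4. Among the fibroblast markers, Postn, Col1a1 and Col3a1 were at 1069, 2905 and 4384 CPM in knockout 2 and 1532.5, 1429 and 3606.5 in wild-type 2. Elsewhere these genes reached at most 203 CPM. Dcn was at 536 CPM in knockout 2 and 744 in wild-type 2, against 516 to 636 CPM elsewhere. Pdgfra and Tcf21 were at 56.0 and 12.5 CPM in knockout 2 and 79.8 and 21.3 in wild-type 2. Elsewhere they reached at most 42.9 and 11.7 CPM. Of 5 atrial markers, Myl4, Myl7 and Sln were at 974, 427 and 356 CPM in wild-type 6 against at most 2.45 CPM elsewhere. Nppa was at 4467 CPM in knockout 2, 3132 in wild-type 2 and 3262 in wild-type 6, against at most 298 CPM elsewhere. Bmp10 was at most 0.141 CPM in any heart. Wild-type 6 had a median over tested genes of 4.12 TPM against 9.31 to 12.8 TPM in the other 7. It had the lowest TPM for 33 of the 38 members but the lowest CPM for 14, and genotypes are compared here in CPM. The part of these library differences in the results given next was not tested. In a bulk sample, fewer cells of a type and less RNA per cell cannot be told apart.

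Across all tested genes 4 of 12826 passed an adjusted p of 0.05 in edgeR's quasi-likelihood test with Benjamini-Hochberg adjustment (0.0312%), 0.0234% as higher and 0.0078% as lower in Gpihbp1-/- hearts. Of the 38 members 0 did, each with an adjusted p of 0.99998. At an unadjusted p under 0.05 in edgeR, 1 of 38 members was higher in Gpihbp1-/- hearts and 0 were lower, against 0.904% of all tested genes in either direction, 0.249% higher and 0.655% lower. Log2 fold changes (knockout over wild type) were negative for 27 members and positive for 11, with a median of -0.18, where all tested genes had 52.9% negative and a median of -0.019. The 95% intervals of 37 of the 38 folds included 0. With a median standard error of 0.30 on the log2 scale, changes of the size seen for most members could not be told from none.

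**Figure D1:**
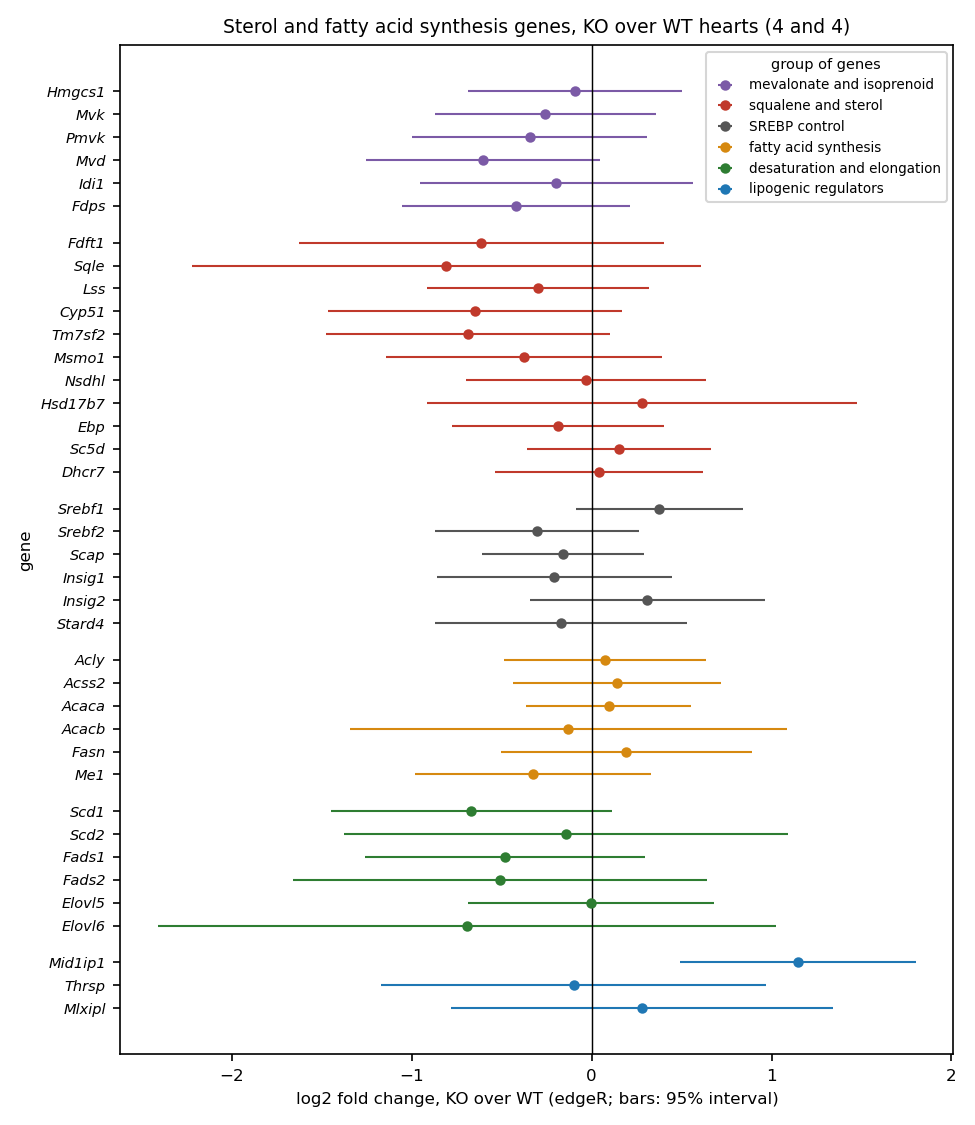
Log2 fold change of each of the 38 genes, Gpihbp1-/- over wild-type hearts, with bars for the 95% interval of edgeR's fit (4 hearts per group). The interval of Mid1ip1 (0.49 to 1.80) lies wholly above 0, and the other 37 intervals include 0.

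Mid1ip1 (NCBI gene 68041), on the X chromosome, was the member that separated the genotypes. Its protein, also called MIG12, binds acetyl-CoA carboxylase, promotes its polymerisation and raises its activity. Mid1ip1 had 184.6, 186.2, 236.8 and 179.3 CPM (read counts scaled to library size) in knockout 1, 2, 3 and 4, against 81.1, 69.3, 139.0 and 66.3 CPM in wild-type 2, 4, 5 and 6. Every knockout heart lay above every wild-type heart, a pattern that 0.265% of all tested genes showed in this direction. The means were 196.7 ± 26.9 CPM in Gpihbp1-/- hearts and 88.9 ± 34.0 CPM in wild-type hearts (SD, n = 4 each). On the log2 scale the fitted difference was 1.14 ± 0.29 (SE, 95% interval 0.49 to 1.80), 2.21-fold. The unadjusted p in edgeR was 0.00318, rank 9 among all tested genes, and the adjusted p was 0.99998, so the difference did not pass the correction. In the deposited TPM the values were 133.6, 152.2, 156.3 and 129.4 in the knockout hearts against 52.2, 50.4, 111.8 and 19.7 in the wild-type hearts, again without overlap. Knockout 2, a heart with high macrophage and fibroblast marker sums, lay among the other knockouts for Mid1ip1, and wild-type 2 among the other wild types. Without both of these hearts the log2 fold change was 1.13 with an unadjusted p of 0.0110 in edgeR, a comparison added after the data had been seen.

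Thrsp, which encodes Spot 14, is the paralog of Mid1ip1 and forms a heterodimer with its protein. Thrsp had 44.6, 11.6, 47.3 and 37.6 CPM in knockout 1, 2, 3 and 4, against 17.6, 42.6, 30.3 and 60.9 CPM in wild-type 2, 4, 5 and 6. Knockout 2 and wild-type 2 were the low hearts of their groups and the groups overlapped (log2 fold change -0.10 ± 0.48 SE, 95% interval -1.17 to 0.97). The TPM ratio of Mid1ip1 to Thrsp was 1.96, 7.61, 2.36 and 2.26 in knockout 1, 2, 3 and 4 and 2.19, 0.771, 2.16 and 0.520 in wild-type 2, 4, 5 and 6. Among the 38 genes these were the pair with the highest mean TPM over the 8 hearts, 100.7 for Mid1ip1 and 48.8 for Thrsp. Mlxipl, the gene of ChREBP, had 98.7, 25.3, 67.4 and 71.9 CPM in knockout 1, 2, 3 and 4, against 23.3, 92.4, 52.7 and 48.3 CPM in wild-type 2, 4, 5 and 6. Its log2 fold change was 0.28 ± 0.47 (SE, 95% interval -0.78 to 1.34). Mlxipl too was lowest in knockout 2 and wild-type 2, the hearts with the low cardiomyocyte marker sums. These were also the low hearts of their groups for 5 endothelial markers. In log2 CPM the median deviation of those markers from their means was 0.80, -0.69, 0.020 and 0.13 in knockout 1, 2, 3 and 4. It was -1.06, 1.13, 0.26 and -0.43 in wild-type 2, 4, 5 and 6. Knockout 1 and wild-type 4 were thus high in their groups for Mlxipl and for the endothelial markers. Which cell types bear on Mlxipl was not tested.

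**Figure D2:**
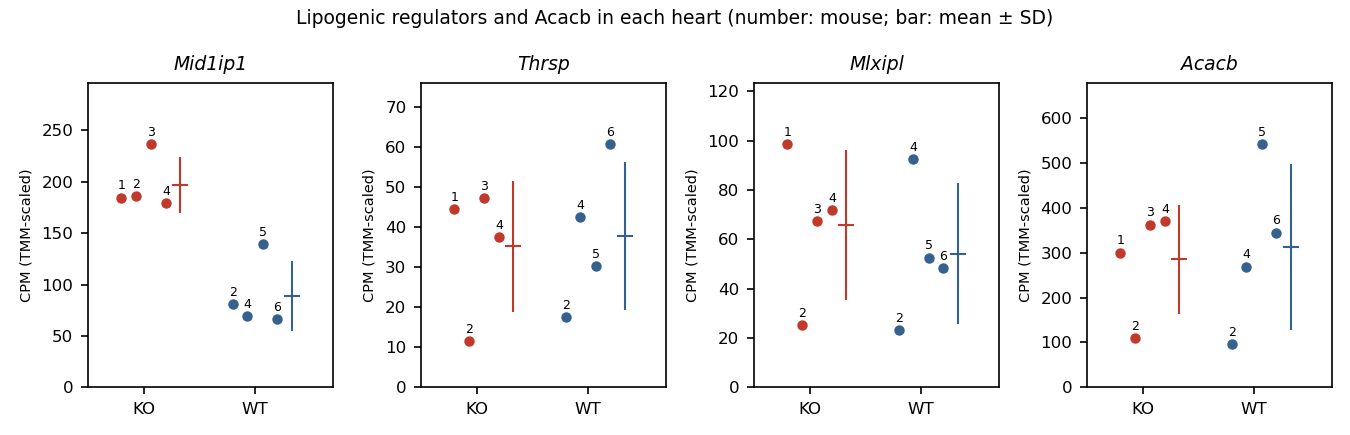
CPM of Mid1ip1, Thrsp, Mlxipl and Acacb in each heart (points), with group means and SD, Gpihbp1-/- left and wild type right (n = 4 each). Mid1ip1 has 179.3 CPM or more in every knockout heart and at most 139.0 CPM in the wild type, whereas for the other 3 genes the groups overlap.

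Of the SREBP system, the factor genes leaned in opposite directions without passing the test. Srebf1, which encodes the SREBP-1 isoforms of lipogenesis, had 68.5, 52.9, 46.9 and 59.7 CPM in knockout 1, 2, 3 and 4, against 46.1, 47.7, 47.5 and 34.3 CPM in wild-type 2, 4, 5 and 6. Knockout 3 fell within the wild-type range and the other 3 knockouts above it (log2 fold change 0.38 ± 0.21 SE, 95% interval -0.089 to 0.84). Srebf2, which encodes the SREBP of cholesterol synthesis, had 38.0, 34.5, 36.1 and 41.1 CPM in knockout 1, 2, 3 and 4, against 66.0, 42.3, 47.1 and 29.2 CPM in wild-type 2, 4, 5 and 6. Its knockout hearts lay close together inside the wide wild-type range (log2 fold change -0.30 ± 0.25 SE, 95% interval -0.87 to 0.26). The TPM ratio of Srebf1 to Srebf2 was 2.15, 1.74, 1.497 and 1.69 in knockout 1, 2, 3 and 4 and 0.867, 1.40, 1.13 and 1.52 in wild-type 2, 4, 5 and 6. Only knockout 3 and wild-type 6 crossed in that order, and because the pair was set side by side after its values were seen the ratio carries no test.

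The escort and anchor genes did not separate the genotypes. Scap had 37.0, 49.0, 39.6 and 46.4 CPM in knockout 1, 2, 3 and 4, against 39.9, 42.8, 53.8 and 55.8 CPM in wild-type 2, 4, 5 and 6 (log2 fold change -0.16 ± 0.20 SE, 95% interval -0.61 to 0.29). Insig1, the INSIG gene that is itself a SREBP target, had 18.04, 9.52, 14.98 and 20.3 CPM in knockout 1, 2, 3 and 4, against 21.5, 16.9, 21.7 and 12.1 CPM in wild-type 2, 4, 5 and 6 (log2 fold change -0.21 ± 0.29 SE, 95% interval -0.86 to 0.45). Insig2, which does not depend on SREBP in the same way, had 41.7, 47.3, 55.0 and 60.4 CPM in knockout 1, 2, 3 and 4, against 45.1, 25.4, 62.1 and 32.3 CPM in wild-type 2, 4, 5 and 6 (log2 fold change 0.31 ± 0.29 SE, 95% interval -0.35 to 0.96). In these hearts Insig2 was the more abundant anchor transcript, with 1.62 to 5.22 times the TPM of Insig1 in each of the 8. The sixth gene of the group, Stard4, encodes a carrier of cholesterol between membranes and had a mean of 12.7 ± 3.06 CPM in Gpihbp1-/- hearts and 14.2 ± 5.28 CPM in wild-type hearts (SD, n = 4 each).

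The mevalonate and isoprenoid enzymes all had negative folds, 6 of 6, with a median of -0.30 and no unadjusted p under 0.05 in edgeR. Hmgcs1, the synthase that makes HMG-CoA, had 25.9, 28.0, 34.1 and 36.7 CPM in knockout 1, 2, 3 and 4, against 40.3, 27.8, 43.7 and 21.1 CPM in wild-type 2, 4, 5 and 6 (log2 fold change -0.094 ± 0.26 SE, 95% interval -0.69 to 0.50). Mvd, which forms isopentenyl diphosphate, had 7.34, 7.61, 8.13 and 9.51 CPM in knockout 1, 2, 3 and 4, against 14.1, 10.2, 7.77 and 17.6 CPM in wild-type 2, 4, 5 and 6. Wild-type 2, 4 and 6 exceeded every knockout heart and wild-type 5 did not (log2 fold change -0.60 ± 0.29 SE, 95% interval -1.25 to 0.047). Fdps, farnesyl diphosphate synthase, had 17.2, 18.6, 18.01 and 17.7 CPM in knockout 1, 2, 3 and 4, against 35.1, 17.6, 14.8 and 28.2 CPM in wild-type 2, 4, 5 and 6. The 4 knockout values differed by little, and the 2 high wild-type hearts carried the difference (log2 fold change -0.42 ± 0.28 SE, 95% interval -1.05 to 0.21). Idi1, which isomerises isopentenyl diphosphate, was at 7.69, 8.40, 10.4 and 8.29 CPM in knockout 1, 2, 3 and 4 and at 17.5, 7.32, 7.86 and 7.03 CPM in wild-type 2, 4, 5 and 6. Its single high heart was wild-type 2, and the other 3 wild-type hearts lay between 7.03 and 7.86 CPM.

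From squalene to cholesterol, 8 of 11 enzymes had negative folds, again with a median of -0.30. Fdft1, squalene synthase and the first committed step to sterols, had 41.2, 15.4, 49.9 and 41.9 CPM in knockout 1, 2, 3 and 4, against 36.6, 37.5, 44.8 and 108.5 CPM in wild-type 2, 4, 5 and 6. Wild-type 6 was the high heart and knockout 2 the low one (log2 fold change -0.61 ± 0.45 SE, 95% interval -1.63 to 0.40). Sqle, squalene epoxidase, a rate-limiting step, had 0.973, 2.49, 2.25 and 1.601 CPM in knockout 1, 2, 3 and 4, against 7.80, 2.28, 1.48 and 1.12 CPM in wild-type 2, 4, 5 and 6. Apart from wild-type 2 the groups shared 1 range (log2 fold change -0.81 ± 0.63 SE, 95% interval -2.22 to 0.61). Lss, which closes the sterol ring to lanosterol, had 3.80, 4.46, 4.31 and 3.20 CPM in knockout 1, 2, 3 and 4, against 5.22, 5.80, 4.02 and 4.36 CPM in wild-type 2, 4, 5 and 6 (log2 fold change -0.30 ± 0.28 SE, 95% interval -0.92 to 0.32). Lss was the second lowest of the 38 genes by mean TPM, at 0.910 over the 8 hearts.

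Cyp51, lanosterol demethylase, had 10.3, 11.7, 13.1 and 13.4 CPM in knockout 1, 2, 3 and 4, against 34.2, 9.69, 18.2 and 13.6 CPM in wild-type 2, 4, 5 and 6. Wild-type 2 was again the high heart (log2 fold change -0.65 ± 0.36 SE, 95% interval -1.46 to 0.17). Tm7sf2, a sterol C14 reductase, had 3.71, 2.49, 4.11 and 3.01 CPM in knockout 1, 2, 3 and 4, against 4.46, 6.75, 3.14 and 7.17 CPM in wild-type 2, 4, 5 and 6. Its high wild-type hearts were 4 and 6 rather than 2 (log2 fold change -0.69 ± 0.35 SE, 95% interval -1.47 to 0.10). Msmo1, the methyl sterol oxidase, was at 8.40, 14.0, 11.3 and 11.8 CPM in knockout 1, 2, 3 and 4 and at 25.8, 12.3, 9.60 and 11.2 CPM in wild-type 2, 4, 5 and 6. Hsd17b7, the 3-ketosteroid reductase of the pathway, was at 8.23, 5.45, 14.4 and 13.0 CPM in knockout 1, 2, 3 and 4 and at 6.41, 5.13, 18.6 and 3.51 CPM in wild-type 2, 4, 5 and 6, without a high value in wild-type 2. Annotated exons or bodies of Fdft1 and Tm7sf2 overlap those of Ctsb and Vps51 in the GRCm38.p6 table, as those of Srebf1 and Acaca overlap Rai1 and Tada2a, and the sources used here do not state whether counting used strand, so reads of such pairs may not be told apart.

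Several sterol enzymes shared their highest heart. Wild-type 2 had the highest CPM of the 8 hearts for 9 of 17 sterol enzymes (52.9%), while it was highest for 14.9% of all tested genes. Knockout 2, which resembled it in macrophage and fibroblast marker sums, was highest of the 8 for 0 of 17. Within the knockout group it was highest for 7 of 17 (41.2%), close to the 39.6% of all tested genes. Summed TPM of the 17 enzymes was 139, 168, 147 and 151 in knockout 1, 2, 3 and 4 and 209, 150, 166 and 92.9 in wild-type 2, 4, 5 and 6. TPM of wild-type 6 is low over all tested genes. In log2 CPM the median deviation of the 17 enzymes from their means over the 8 hearts was -0.067 in wild-type 6, against -0.22 to 0.51 elsewhere. Without wild-type 2, 9 of 17 sterol folds were negative and their median was -0.027, where all 8 hearts gave 14 negative and -0.30. Without both hearts numbered 2, a setting chosen after the data had been seen, 11 of 17 were negative. Whether the high marker sums of wild-type 2 bear on its sterol genes was not tested.

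**Figure D3:**
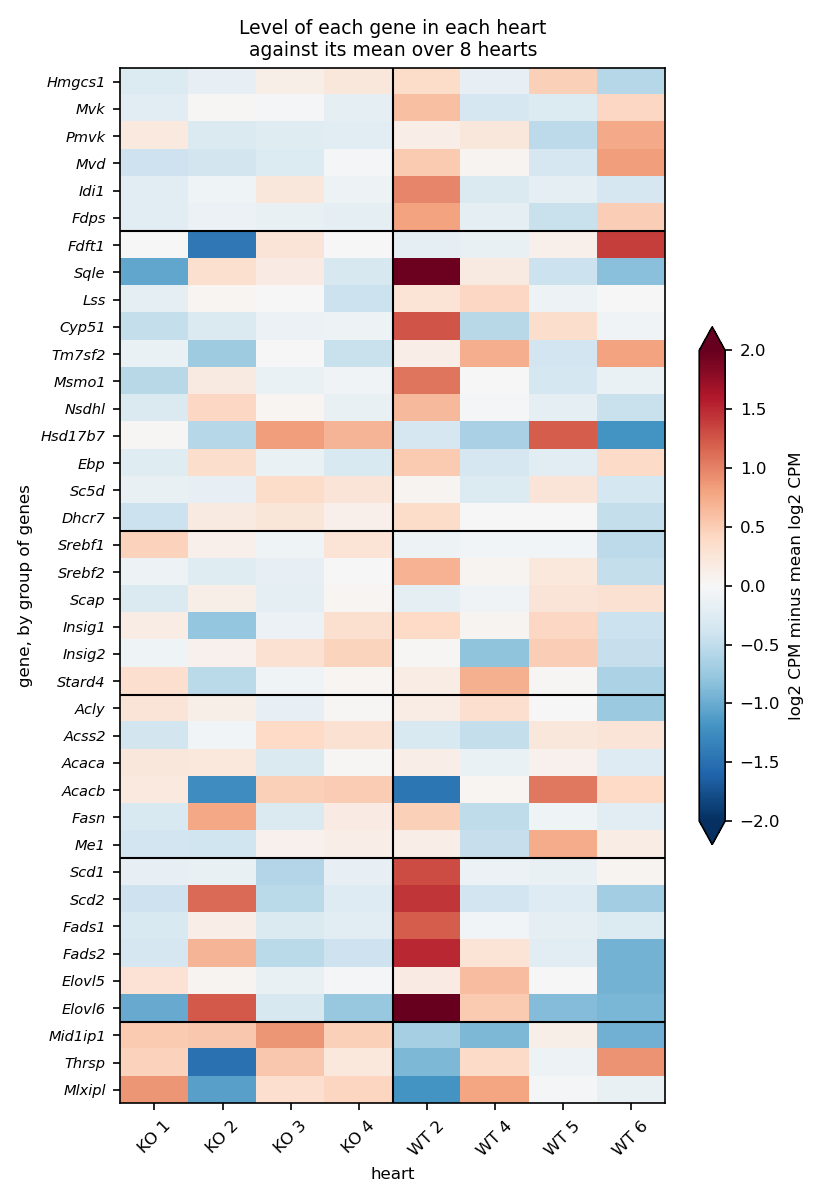
Log2 CPM of the 38 genes in each heart as the deviation from the mean of the gene over the 8 hearts, rows ordered by role and knockout hearts left of wild-type hearts. Colour saturates at 2 log2 units. Wild-type 2 is the highest heart for 9 of 17 sterol enzymes and 5 of 6 desaturases and elongases, against 14.9% of all tested genes. Mid1ip1 is high in the 4 knockout hearts.

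Enzymes that supply acetyl-CoA and build palmitate did not separate the genotypes: 2 of 6 folds were negative and the median was 0.086. Acly, ATP citrate lyase, had 62.0, 56.3, 46.5 and 52.9 CPM in knockout 1, 2, 3 and 4, against 57.8, 65.6, 51.9 and 31.2 CPM in wild-type 2, 4, 5 and 6 (log2 fold change 0.076 ± 0.25 SE, 95% interval -0.49 to 0.64). Fasn, fatty acid synthase, had 24.2, 51.2, 24.7 and 33.5 CPM in knockout 1, 2, 3 and 4, against 41.9, 21.1, 28.3 and 25.6 CPM in wild-type 2, 4, 5 and 6. It was highest in knockout 2 and wild-type 2 within their groups (log2 fold change 0.19 ± 0.31 SE, 95% interval -0.51 to 0.89). Me1, the malic enzyme that yields NADPH, had 78.5, 77.8, 109.2 and 113.1 CPM in knockout 1, 2, 3 and 4, against 113.3, 74.4, 172.5 and 113.8 CPM in wild-type 2, 4, 5 and 6 (log2 fold change -0.32 ± 0.29 SE, 95% interval -0.98 to 0.33). By TPM, Me1 was the fourth most abundant of the 38 genes at 44.6 over the 8 hearts.

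Acetyl-CoA carboxylase comes as the cytosolic form of Acaca and the mitochondrial form of Acacb, whose malonyl-CoA restrains fatty acid entry into mitochondria. Acaca had 20.5, 20.3, 14.3 and 17.8 CPM in knockout 1, 2, 3 and 4, against 19.2, 15.9, 18.5 and 14.6 CPM in wild-type 2, 4, 5 and 6. It varied least of the 38 genes, with a highest heart 1.44 times the lowest (log2 fold change 0.096 ± 0.20 SE, 95% interval -0.36 to 0.55). Acacb had 299.6, 109.9, 362.5 and 370.6 CPM in knockout 1, 2, 3 and 4, against 95.9, 268.6, 542.1 and 344.6 CPM in wild-type 2, 4, 5 and 6. Knockout 2 and wild-type 2 were the lowest hearts of both groups, as they were for the cardiomyocyte marker sum, and the genotypes overlapped (log2 fold change -0.13 ± 0.54 SE, 95% interval -1.34 to 1.08). Acacb exceeded Acaca in every heart, by a TPM ratio of 15.8, 5.88, 27.6 and 22.6 in knockout 1, 2, 3 and 4 and 5.46, 18.5, 31.2 and 25.9 in wild-type 2, 4, 5 and 6. Neither carboxylase gene passed the test.

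The desaturases and elongases among the members had negative folds for 6 of 6 genes, with a median of -0.49 and no unadjusted p under 0.05 in edgeR. Elovl5 counts there by sign only, with means of 45.9 ± 6.09 CPM in Gpihbp1-/- and 46.0 ± 18.4 CPM in wild-type hearts (SD). The desaturase Fads3, counted with the elongation cycle below, had a positive log2 fold change, 0.39 ± 0.37 (SE). In that list 7 of 9 tested genes had negative folds and 2 positive. Scd1, the stearoyl-CoA desaturase of lipogenic tissues, had 19.6, 19.8, 14.6 and 19.5 CPM in knockout 1, 2, 3 and 4, against 54.1, 20.1, 19.7 and 22.8 CPM in wild-type 2, 4, 5 and 6. The 4 knockout hearts and the other 3 wild-type hearts lay between 14.6 and 22.8 CPM, and wild-type 2 stood above them (log2 fold change -0.67 ± 0.35 SE, 95% interval -1.45 to 0.11). Scd2, its paralog, had 30.7, 89.3, 28.2 and 34.2 CPM in knockout 1, 2, 3 and 4, against 110.6, 31.3, 34.2 and 25.2 CPM in wild-type 2, 4, 5 and 6. Here both hearts numbered 2 were high and the other 6 lay between 25.2 and 34.2 CPM (log2 fold change -0.14 ± 0.55 SE, 95% interval -1.38 to 1.09). Estimated counts can divide reads between paralogs of similar sequence, so the Scd and Fads genes depend on that division.

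Fads1, the delta-5 desaturase of polyunsaturated fatty acids, had 28.6, 38.9, 29.0 and 30.1 CPM in knockout 1, 2, 3 and 4, against 81.8, 33.9, 31.3 and 29.4 CPM in wild-type 2, 4, 5 and 6 (log2 fold change -0.48 ± 0.35 SE, 95% interval -1.26 to 0.30). Fads2, the delta-6 desaturase beside it, was at 8.40, 16.9, 7.24 and 7.91 CPM in knockout 1, 2, 3 and 4 and at 30.1, 12.7, 9.17 and 5.48 CPM in wild-type 2, 4, 5 and 6. For both genes knockout 2 and wild-type 2 were the high hearts of their groups, as for Scd2. Elovl6, which extends palmitate to stearate, had 0.796, 3.74, 1.27 and 0.942 CPM in knockout 1, 2, 3 and 4, against 6.90, 2.28, 0.873 and 0.843 CPM in wild-type 2, 4, 5 and 6. These rested on 9, 57, 13 and 10 counts and on 99, 24, 10 and 6 counts, the fewest of any member (log2 fold change -0.69 ± 0.76 SE, 95% interval -2.41 to 1.02). The highest Elovl6 heart had 8.66 times the CPM of the lowest, the widest spread of the 38 genes, whose median spread was 2.44. Elovl5, the elongase of polyunsaturated fatty acids, was far more abundant, with 16.1 to 155.7 times the TPM of Elovl6.

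**Figure D4:**
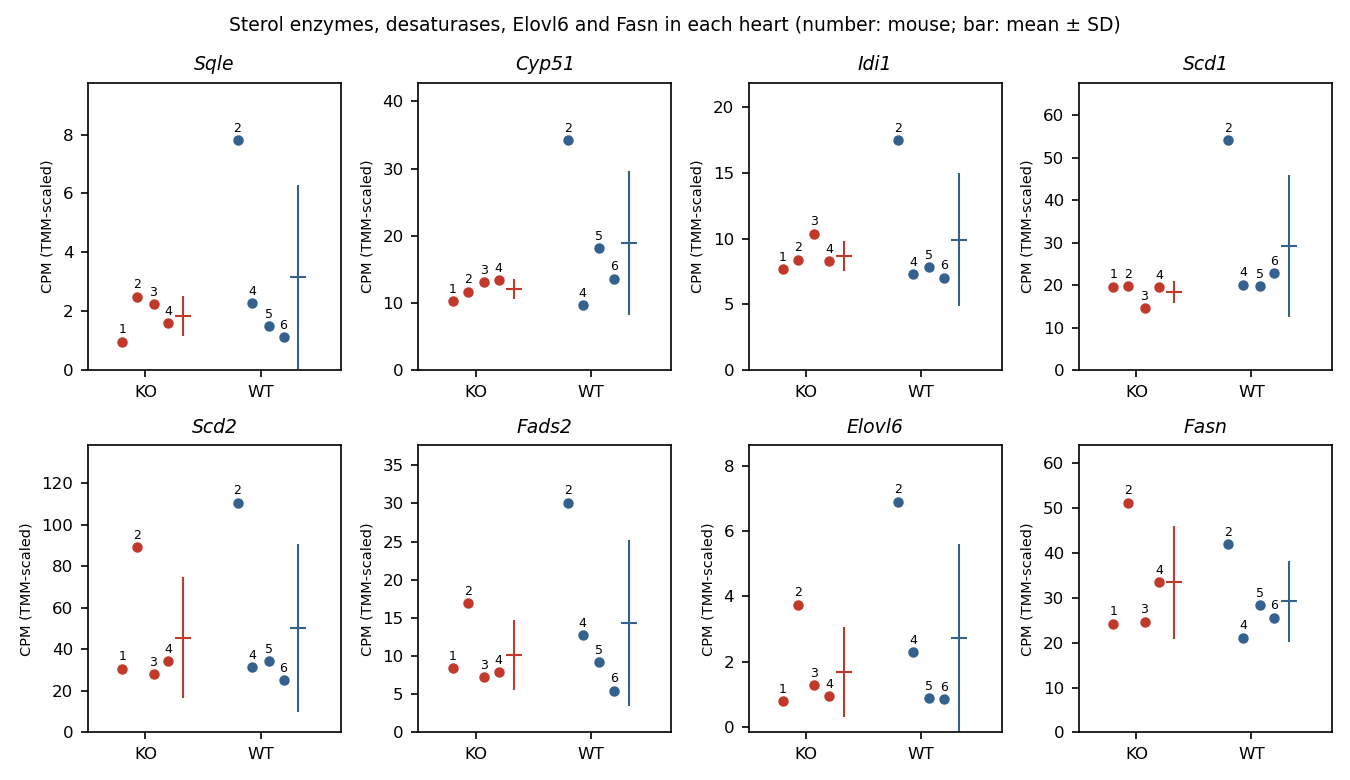
CPM of 8 enzymes of sterol and fatty acid synthesis, desaturation and elongation in each heart (points) with group means and SD, Gpihbp1-/- left and wild type right (n = 4 each). For Sqle, Cyp51, Idi1 and Scd1 the highest point is wild-type 2, and for Scd2, Fads2, Elovl6 and Fasn knockout 2 and wild-type 2 are the high points of their groups.

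Wild-type 2 was the highest of the 8 hearts for 5 of 6 desaturases and elongases (83.3%), against 14.9% of all tested genes. Knockout 2 was the highest knockout heart for 5 of 6 (83.3%), against 39.6% of all tested genes. Summed TPM of the 6 desaturases and elongases was 57.3, 87.0, 43.3 and 53.1 in knockout 1, 2, 3 and 4 and 105.5, 69.7, 60.4 and 16.4 in wild-type 2, 4, 5 and 6. TPM of wild-type 6 is low over all tested genes. In log2 CPM the median deviation of these enzymes from their means was -0.76 in wild-type 6, against -0.43 to 1.36 elsewhere. The hearts that lead, knockout 2 and wild-type 2, are those with high macrophage and fibroblast marker sums. Cd68, a macrophage lysosomal protein, had 217.5 CPM in knockout 2 and 191.6 CPM in wild-type 2 against at most 19.8 CPM in the others. What part it has in the summed TPM of the desaturases and elongases was not tested. Without wild-type 2 alone, 3 of 12 fatty acid enzymes had negative folds and their median was 0.094. With both hearts left out, a setting chosen after the data had been seen, the median fold of the 12 fatty acid enzymes was 0.027 over 11 tested genes and that of the sterol enzymes -0.11. The 9 adipocyte markers other than Fabp4, which endothelium also expresses, were near 0. They summed to at most 0.91 TPM in Gpihbp1-/- hearts and 4.80 TPM in wild-type hearts, the latter in wild-type 6. Adipoq had 0 CPM in the knockout hearts and at most 0.562 CPM in a wild-type heart, also wild-type 6. Of 4 brown adipocyte markers, Ucp1 and Elovl3 were at most 0.131 CPM in any heart. Cidea ran from 25.1 to 89.4 CPM, highest in wild-type 6, and Ppargc1a from 27.4 to 126.2 CPM, highest in wild-type 5.

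**Figure D5:**
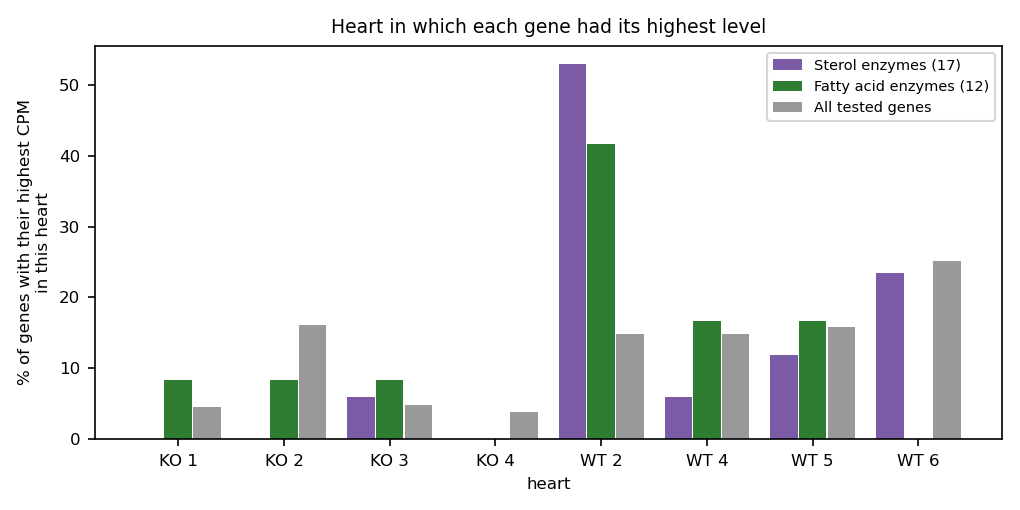
Percentage of genes for which each heart had the highest CPM of the 8 hearts, for the 17 sterol enzymes, the 12 fatty acid enzymes and all 12826 tested genes, knockout hearts left. Wild-type 2 was highest for 52.9% of sterol and 41.7% of fatty acid enzymes, against 14.9% of all tested genes.

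The 13 members not given a fold here (Mvk, Pmvk, Idi1, Msmo1, Nsdhl, Hsd17b7, Ebp, Sc5d, Dhcr7, Stard4, Acss2, Fads2 and Elovl5) had log2 fold changes between -0.51 and 0.28, of which 9 were negative, and their smallest unadjusted p in edgeR was 0.265. Their mean TPM ran from 2.80 to 23.0. Levels in the whole set spanned 0.485 TPM for Elovl6 to 100.7 TPM for Mid1ip1, with Acacb at 44.8, Insig2 at 25.2 and Fdps at 24.4 TPM. For 25 of the 38 genes the highest heart had less than 3 times the CPM of the lowest.

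A further 6 lists, drawn up with earlier results of these data known, named 59 genes of isoprenoid branches, SREBP processing, sterol export, the elongation cycle, acetyl-CoA and NADPH supply and ChREBP partners, of which 53 were tested. Of these 0 passed the adjusted threshold in edgeR (0.0312% of all tested genes did), 28 folds were negative and 25 positive (52.9% of all tested genes were negative), and the median was -0.037. The elongation cycle held the 1 gene of the 53 with an unadjusted p under 0.05 in edgeR, where 0.904% of all tested genes had one and 0.655% were lower. Scd4, a stearoyl-CoA desaturase known from the mouse heart, had 1.86, 0.328, 2.94 and 1.601 CPM in knockout 1, 2, 3 and 4, against 1.11, 4.37, 9.08 and 10.8 CPM in wild-type 2, 4, 5 and 6. Wild-type 2 fell within the knockout range and the other 3 wild-type hearts above it (log2 fold change -1.92 ± 0.76 SE, unadjusted p = 0.0308 and adjusted p = 0.99998 in edgeR). Hacd3, a dehydratase of the same cycle, was the 1 gene of the 53 whose groups did not overlap, with 24.9, 25.5, 23.5 and 25.997 CPM in knockout 1, 2, 3 and 4 against 26.3, 26.3, 28.2 and 29.2 CPM in wild-type 2, 4, 5 and 6. Its log2 fold change was -0.14 with a 95% interval of -0.51 to 0.23, and 0.366% of all tested genes were lower without overlap.

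The remaining lists gave no gene near the threshold. The smallest unadjusted p in edgeR was 0.139 for Nr1h3, the sterol-sensing receptor LXR alpha, in sterol export (log2 fold change -0.49), and 0.148 for Fbxw7, which marks nuclear SREBP for destruction, in SREBP processing (-0.55). It was 0.355 for Fnta, a prenyltransferase subunit, in the isoprenoid branches (-0.28). In edgeR it was 0.436 for Idh1, a cytosolic source of NADPH, in acetyl-CoA and NADPH supply (0.17), and 0.659 for Mlxip, the ChREBP relative MondoA, among the ChREBP partners (-0.11).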

How the data were processed

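Poly(A) RNA from 8 hearts was sequenced as strand-specific paired ends on a DNBSEQ instrument, per the labels' protocols, 1 paragraph of which names rat tissue although every sample is labelled mouse. HISAT, Bowtie2 and the build GRCm39 appear in the submitters' processing notes with no version or role, and what counted the reads was not given in the sources used here. A single table deposited by the authors holds, per the file headers, estimated counts (expected counts), TPM and FPKM per library; 8 further per-sample columns were empty and not used, and FPKM entered no result. Estimated counts were rounded and filtered with filterByExpr (minimum count 10, minimum total 15), leaving 12826 genes. The genotypes were compared with edgeR 4.0.16 in R 4.3.3 (TMM scaling, robust quasi-likelihood test, no covariates), with Benjamini-Hochberg adjustment over all tested genes and a threshold of 0.05. CPM are scaled by TMM; they compare a gene between hearts, and the authors' TPM compares genes. Standard errors and 95% intervals come from the fit. Totals of 9065553 to 13492957 counts set the precision, and amplified reads are not independent molecules. Alternatives were other scalings, filters and tools (DESeq2 1.42.0), a replicate block and leaving out libraries.

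The members and gene lists were chosen with earlier results of these data known. Values per heart are given for regulators and key enzymes named by rule, for the members with the smallest p, with groups that do not overlap, or with the highest or lowest TPM. Heart values of Idi1, Msmo1, Hsd17b7 and Fads2 were added after they were seen. Promoters come from the RefSeq table for GRCm38.p6, in which 38 of 38 members matched by gene identifier; it is of another build than the counts.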

Additional observations from a re-analysis of the deposited data

Results flagged for a closer look

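Dixon's criterion at 95% was applied to 76 groups of 4 hearts (38 genes in each genotype). In 14 of them 1 heart stood far from the other 3. That is 18.4% of the member groups, against 13.4% of the 25652 groups of all tested genes, a difference that was not tested. The nominal rate of 1 group in 20 assumes normally distributed values, which CPM need not be. The share over all tested genes is the background here. Over all tested genes knockout 2 was the high heart in 11.0% of knockout groups and wild-type 2 in 5.65% of wild-type groups. Wild-type 2 was the high heart for Idi1 (17.5 CPM), Msmo1 (25.8 CPM), Scd1 (54.1 CPM), Scd2 (110.6 CPM) and Fads1 (81.8 CPM). Knockout 2 was the high heart of its group for Scd2 (89.3 CPM), Fads1 (38.9 CPM), Fads2 (16.9 CPM) and Elovl6 (3.74 CPM). Wild-type 6 was high for Fdft1 (108.5 CPM) and low for Srebf1 (34.3 CPM). Knockout 3 was high for Mid1ip1 (236.8 CPM) and low for Scd1 (14.6 CPM), and knockout 1 was high for Pmvk (13.0 CPM).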

How the results depend on the processing

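Mid1ip1 stayed higher in Gpihbp1-/- hearts under all 17 alternatives, with log2 fold changes of 0.94 to 1.44; leaving out 1 heart at a time gave 1.01 to 1.44, with adjusted p from 0.627 (without wild-type 5) to 0.99997 in edgeR, and DESeq2 gave an adjusted p of 0.157. Members past the threshold stayed at 0 except under the replicate block, where Mid1ip1 passed (log2 fold change 1.28, adjusted p = 0.0223 in edgeR), 1 of 38, with 168 genes past it in all. The block also moved the sterol median to -0.47, with 15 of 17 folds negative, and 10 of 38 members had an unadjusted p under 0.05 in edgeR, among 1448 of all tested genes. Only numbers 2 and 4 occur in both genotypes, so every fold under the block rests on knockout 2 and 4 and wild-type 2 and 4. Each other heart is alone in its block and does not enter the fold. The genes passing under the block are therefore not a result of all 8 hearts. The labels do not say that a number pairs mice: hearts numbered 2 had correlated deviations (0.908) and those numbered 4 barely (0.110). Over all tested genes, those past the threshold numbered 2 with the strict filter of 10 CPM, 8 with DESeq2 and 2 to 3 with 1 heart left out. The median fold of the sterol enzymes ran from -0.38 to -0.027 and that of the fatty acid enzymes from -0.30 to 0.094 with 1 heart left out, the upper ends without wild-type 2; that alternative left 17 of 38 folds negative, with 50.9% of all tested genes negative. Without knockout 2 and both wild-type 2 and 6, chosen after seeing the data, the sterol median was -0.0052, and the cause was not tested. Total-count scaling moved the median of all genes by 0.10, giving 24 of 38 members and 36.9% of all genes negative.

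Of 420 values for the 25 genes given folds, 27 changed sign, 1 passed the threshold and the others kept direction and side. With 1 heart left out the ranges that crossed 0 were -0.27 to 0.064 for Hmgcs1, -1.08 to 0.15 for Sqle, -0.12 to 0.22 for Acly, -0.43 to 0.27 for Acacb, -0.090 to 0.42 for Fasn, -0.70 to 0.59 for Scd2, -0.64 to 0.0014 for Fads1, -1.46 to 0.34 for Elovl6 and -0.34 to 0.20 for Thrsp. Thrsp was at 0.052 under total-count scaling. Under the block Scap was at 0.21, Acly at -0.17, Acacb at 0.33, Me1 at 0.028 and Mlxipl at -0.13. Without both hearts numbered 2, Hmgcs1 was at 0.058, Insig1 at 0.066 and Scd2 at 0.036, and without wild-type 6 as well Fdps was at 0.13, Fdft1 at 0.11, Acly at -0.12 and Thrsp at 0.25. Genes such as Elovl6, Sqle and Lss are limited by few counts.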
